A study of Mus musculus with 6 samples.

Results

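The guanylate-binding proteins (GBPs) are a family of large GTPases that are induced by interferon. They were followed here in hypoxic mouse heart cells through the 10 genes Gbp2 to Gbp11, taken by gene name from the 57010 rows of the count table, and all 10 names were found. The study compared β-sitosterol (β-SITO), a plant sterol, with vehicle in primary neonatal mouse cardiomyocytes (NMCMs) by RNA-seq. There were 6 libraries. V1, V2 and V3 came from the HO + Vehicle group, and T4, T5 and T6 from the HO + β-SITO group. Both groups shared the hypoxic condition (HO), and no library of normoxic cells was analysed here. The cells came from C57BL/6 pups aged 1 to 3 days and were parted from fibroblasts by their slower attachment to the dish. The dose of β-SITO and the hours of hypoxia behind these libraries are not given in the sources used here. The labels do not say whether libraries of a group came from separate cultures, so p-values measure the spread between these libraries, which may be technical.

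GBPs belong to the dynamin superfamily. Interferon-γ is their classical inducer, and it acts through JAK kinases and the factor IRF1, while type I interferons act through STAT2 and IRF9 among others. Once made, GBPs gather on the vacuoles of intracellular parasites and on bacteria, break them open or coat them, and help the inflammasome caspases to sense what is released. In the heart they are known mainly as part of the interferon response to infection and inflammation. In the mouse the genes lie in a cluster on chromosome 3 and a cluster on chromosome 5.

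The start regions of the chromosome 3 members are shown first. RefSeq promoter windows on build GRCm38.p6, each of 300 bases from 250 before to 50 after the gene start, were found for Gbp2, Gbp3, Gbp5 and Gbp7, that is for 4 of the 10 members, and for their neighbour Gbp2b, which is not a member. Both strands were searched for the core of the interferon-stimulated response element (ISRE), which is TTTC, any 2 bases and TTTC again, and for the gamma-activated site (GAS), TTCNNNGAA. The ISRE core was present in all 4 members and in Gbp2b, and in 3.44% of all 32851 promoter windows of that length. The GAS letters were found 2 times each in Gbp5 and Gbp7 and not in the windows of Gbp2 and Gbp3, and in 8.30% of all windows. A match describes the letters of a window and says nothing on whether a factor binds there. Gbp3 has a further window at a later start, which held neither motif. The 60 bases around each ISRE core, in capitals, lie on the plus strand at chr3:142620579-142620638 (Gbp2), chr3:142559974-142560033 (Gbp3), chr3:142496744-142496803 (Gbp5), chr3:142530258-142530317 (Gbp7) and chr3:142594685-142594744 (Gbp2b).
Gbp2: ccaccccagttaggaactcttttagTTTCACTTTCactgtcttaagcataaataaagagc
Gbp3: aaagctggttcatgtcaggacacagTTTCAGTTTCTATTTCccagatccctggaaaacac
Gbp5: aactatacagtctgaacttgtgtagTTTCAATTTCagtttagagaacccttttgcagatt
Gbp7: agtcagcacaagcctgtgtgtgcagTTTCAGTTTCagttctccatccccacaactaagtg
Gbp2b: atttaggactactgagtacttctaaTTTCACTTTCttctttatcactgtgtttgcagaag
In Gbp3 the capitals hold 2 overlapping matches. The core began 59 bases before the start of Gbp2, 45 before that of Gbp3, 53 before that of Gbp7, 137 before that of Gbp2b and 165 before that of Gbp5.

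The libraries held 16694734 to 18460522 counts. Levels are in CPM (counts per 1000000 counts) after TMM normalization, which corrects for differences in library composition. Treatment was tested by edgeR's quasi-likelihood method over the 14799 genes with enough counts, with Benjamini-Hochberg adjustment, and a gene was called lower or higher, or is said to have fallen or risen, when it changed over 2-fold and its adjusted p was below 0.05. Of 12 cardiomyocyte markers none fell and 3 rose, and their summed CPM was 6380 to 7391 in the vehicle libraries, 5797 in T4, 9747 in T5 and 9880 in T6. Fibroblast markers were abundant too (summed CPM of 8 markers 29799 to 31079 with vehicle and 44363 to 45450 with β-SITO, 0 called), so the libraries were not of cardiomyocytes alone. All 7 endothelial markers rose (summed CPM 191 to 219 against 791 to 827), as did 3 of 6 smooth muscle markers (575 to 626 against 1106 to 1312). Of 12 macrophage markers 7 rose and 2 fell, Fcgr1 and Cd14, and their sum was 1335 to 1457 with vehicle and 2709 to 3319 with β-SITO. The 2 neutrophil markers tested of 6, Csf3r and Camp, fell, with Ly6g at 0 in every library and a sum of 16.4 to 17.8 against 3.59 to 5.54. No T or NK cell marker had enough counts to be tested. Their sum was at most 0.728 CPM, and Cd3e, Cd3d, Cd3g, Gzmb and Ncr1 were at 0 in every library.

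β-SITO libraries held almost none of the GBP transcripts that vehicle libraries held. All 10 members were lower with β-SITO, each with every β-SITO library below every vehicle library. By the rule above 10.1% of all tested genes were lower, 12.8% were higher and 22.8% were called in either direction, and 35.8% had every β-SITO library below every vehicle library. The median log2 fold change of the members was -7.29, beside -0.01 over all tested genes. The summed CPM of the 10 genes was 5568, 5772 and 6045 in V1, V2 and V3 and 51.8, 46.3 and 42.7 in T4, T5 and T6. The group means were 5795 ± 239 and 46.9 ± 4.59 (SD, n = 3 each), a 124-fold difference. The exact two-sided permutation test of 3 libraries against 3 gave p = 0.1, the smallest it can give. The members made up 0.528% to 0.572% of all counts with vehicle and 0.00449% to 0.00547% with β-SITO. In such bulk libraries fewer cells of a type and less RNA per cell cannot be told apart. Markers of endothelial cells, smooth muscle, macrophages and neutrophils moved with the treatment, and their part in the fall of the GBPs was not tested.

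**Figure D1:**
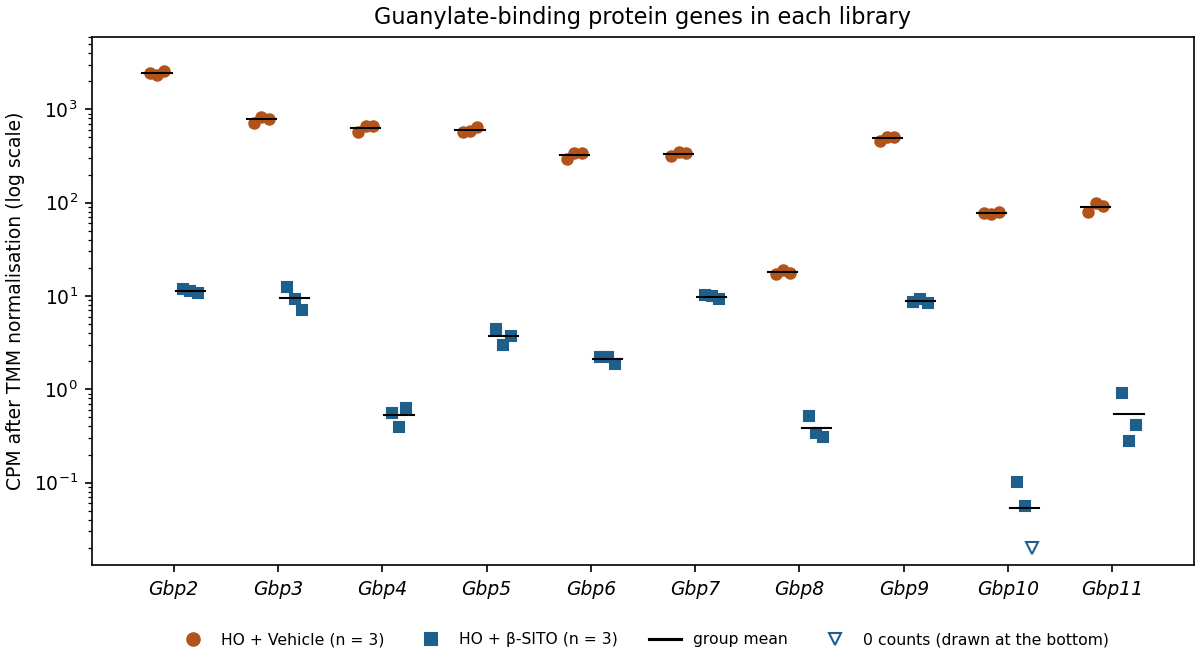
CPM after TMM normalization (log axis) of the 10 GBP genes in each library, with circles for HO + Vehicle, squares for HO + β-SITO, black lines for group means and an open triangle for the 1 library with 0 counts of Gbp10. No square reaches a circle of the same gene, and Gbp4 and Gbp10 show the widest gaps.

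On chromosome 3 the 4 members lie in the order Gbp5, Gbp7, Gbp3 and Gbp2 on the plus strand of build GRCm39, the build of the deposited table. Mice that lack this cluster are known to control the parasite Toxoplasma poorly. Gbp2 (chr3:142326363-142343769), which coats parasite vacuoles, stood at 2473, 2307 and 2559 CPM in V1 to V3 and at 11.8, 11.5 and 10.9 CPM in T4 to T6. It was tightly grouped on each side and dropped 215-fold (log2 fold change -7.75 ± 0.09 SE, adjusted p = 1.24e-17, edgeR, as for all adjusted p-values here). Gbp3 (chr3:142265787-142278970), which joins Gbp2 on bacteria, stood at 707, 834 and 798 CPM against 12.4, 9.21 and 7.12 CPM. Its β-SITO libraries were more spread than those of Gbp2, with T4 highest, and its log2 fold change was -6.35 ± 0.14 SE (adjusted p = 3.16e-15).

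Gbp5 (chr3:142199739-142228105) is known for a part in inflammasome assembly. It was measured at 576, 589 and 641 CPM with vehicle and at 4.47, 2.98 and 3.74 CPM with β-SITO, a log2 fold change of -7.33 ± 0.11 SE (adjusted p = 6.39e-17). Gbp7 (chr3:142236103-142255910), its neighbour, is known to bring NADPH oxidase to vacuoles. Its levels were 314, 349 and 337 CPM with vehicle and 10.3, 9.94 and 9.36 CPM with β-SITO. This was the smallest fall in the family, 33.8-fold (log2 fold change -5.08 ± 0.08 SE, adjusted p = 7.69e-17), and its 95% interval of -5.23 to -4.93 did not meet that of Gbp5, -7.53 to -7.12. Both windows held an ISRE core and GAS letters. The summed CPM of the chromosome 3 members fell from 4161 ± 151 to 34.5 ± 3.97 (SD, n = 3 each).

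On chromosome 5 the 6 members lie on the minus strand. From low to high coordinates they are Gbp8, Gbp9, Gbp4, Gbp10, Gbp6 and Gbp11. Gbp4 (chr5:105263633-105287452), reported as a brake on IRF7, had 575, 655 and 671 CPM with vehicle and 0.565, 0.393 and 0.624 CPM with β-SITO, from 11, 7 and 12 counts. Its log2 fold change was -10.20 ± 0.13 SE (adjusted p = 2.36e-17), rank 14 from the lowest of the 14799 genes. Gbp9 (chr5:105225496-105287405) had 455, 502 and 508 CPM against 8.62, 9.38 and 8.37 CPM, a log2 fold change of -5.80 ± 0.08 SE (adjusted p = 5.86e-17). The annotated rows of these genes overlap: 99.8% of the Gbp4 row lies within that of Gbp9, on the same strand, and their 5′ ends are 47 bases apart. Their log2 fold changes differed all the same, with 95% intervals of -10.45 to -9.95 for Gbp4 and -5.96 to -5.64 for Gbp9. How reads in any exons that these rows share were assigned is not stated.

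Gbp8 (chr5:105162016-105287406), whose row spans all of Gbp9 and whose 5′ end lies 1 base from it, was the member with the fewest counts with vehicle. It had 17.2, 19.0 and 17.8 CPM with vehicle and 0.513, 0.337 and 0.312 CPM with β-SITO, from 10, 6 and 6 counts. The log2 fold change was -5.50 ± 0.18 SE (adjusted p = 4.15e-13), so that Gbp8 and Gbp9 were closer to each other than either was to Gbp4. Gbp11 (chr5:105470908-105494338) had 80.3, 100.4 and 92.2 CPM against 0.924, 0.281 and 0.416 CPM, from 18, 5 and 8 counts. T4 was highest, the log2 fold change was -7.36 ± 0.18 SE (adjusted p = 1.19e-14), and without T4 it was -7.99.

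Gbp6 and Gbp10 share more of their transcript sequence with other genes than the remaining members do. Windows of 150 bases, the length of a read, were taken from their GENCODE vM21 transcripts. Of these, 59.1% in Gbp6 and 66.6% in Gbp10 occur letter for letter in another gene, mainly in Gm43302. That row had 4, 16 and 62 counts with vehicle and 0, 1 and 0 with β-SITO. It lies between the outermost members on the same strand (chr5:105362773-105441561), over all of the Gbp10 row and nearly all of the Gbp6 row. Windows shared with Gm43302 can therefore be the same bases of the genome under another row. Gbp6 and Gbp10 share windows also with each other, 49.7% of those of Gbp10. For Gbp7 the share was 8.77%, all with the row Gm43802, which lies wholly within the Gbp7 row on the same strand. Gm43802 was at 0 in every library, and a count of 0 does not show that no shared reads were dropped. Gbp4 and Gbp11 shared 2 windows, and the remaining members none. Gbp6 (chr5:105418568-105441564) had 293, 341 and 341 CPM against 2.21, 2.25 and 1.87 CPM, a log2 fold change of -7.26 ± 0.11 SE (adjusted p = 6.39e-17). Gbp10 (chr5:105363565-105387399) had 77.7, 75.8 and 79.9 CPM with vehicle, from 1231, 1211 and 1290 counts, and only 2, 1 and 0 counts with β-SITO. The ratio of the scaled counts was 1466, with an exact 95% interval of 501 to 7111 that covers counting error only. Its fitted log2 fold change, which depends on the small count added before fitting, was -10.33 ± 0.18 SE (adjusted p = 3.98e-16) and -11.14 without T4. Reads of Gbp6, Gbp10 and Gm43302 could have been split or dropped in counting. So could reads of Gbp7 where Gm43802 lies, and reads of the overlapping rows of Gbp4, Gbp8 and Gbp9. Gbp4, Gbp8 and Gbp9 shared no 150-base window with each other. That check cannot show shared exons shorter than a window, or exons found only in the annotation of the deposited table. The values of Gbp4, Gbp6, Gbp8, Gbp9 and Gbp10 are therefore uncertain, and so is the shared part of Gbp7.

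Levels of different genes were compared per kilobase of the longest coding transcript in GENCODE vM21, whose lengths alone were used. In the vehicle libraries Gbp2 had the highest level per kilobase, 972 ± 50.9 CPM per kb (SD, n = 3). Gbp3 came next with 291 ± 24.4 and Gbp5 with 197 ± 11.4 CPM per kb. Gbp4 (140 ± 11.3 CPM per kb), Gbp6 (125 ± 10.7) and Gbp9 (111 ± 6.66) followed, and in this stretch the libraries of Gbp4 overlapped those of Gbp6, and those of Gbp6 overlapped those of Gbp9. Below them stood Gbp7 with 59.4, Gbp11 with 33.8, Gbp10 with 22.0 and Gbp8 with 7.32 CPM per kb, with no overlap between neighbours. In the β-SITO libraries Gbp2 (4.51 CPM per kb) and Gbp3 (3.57) overlapped at the top, and Gbp9 (2.01) and Gbp7 (1.76) came above Gbp5 (1.22) and Gbp6 (0.810). Gbp11 (0.201), Gbp8 (0.158) and Gbp4 (0.116) overlapped at low levels, and Gbp10 was lowest with 0.0150 CPM per kb. Gbp4 thus moved from rank 4 to rank 9 and Gbp7 from rank 7 to rank 4. The length of all merged exons was also used in place of the longest transcript. The vehicle ranks were then 3 for Gbp9 in place of 6, 4 for Gbp5, 5 for Gbp4, 6 for Gbp7 and 7 for Gbp6. With β-SITO Gbp7 had rank 3 and Gbp9 rank 4, and Gbp4 stayed at rank 9. The middle ranks, and with them the starting ranks of Gbp4 and Gbp7, thus depend on the gene model.

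The unequal falls changed the make-up of what was left. Within the counts of the 10 genes, a measure that scaling between libraries cannot alter, Gbp2 made up 44.4%, 40.0% and 42.3% in V1 to V3 and 22.7%, 24.8% and 25.5% in T4 to T6. Gbp7 went the other way, with 5.64%, 6.05% and 5.57% against 19.8%, 21.5% and 21.9%. Gbp9 behaved like Gbp7, with a mean of 8.43% against 18.8%, and Gbp3 had 13.4% against 20.2%. Gbp4 made up 10.3%, 11.4% and 11.1% with vehicle and 1.09%, 0.850% and 1.46% with β-SITO. The mean shares of Gbp5 (10.4% against 7.94%), Gbp6 (5.60% against 4.50%) and Gbp10 (1.34% against 0.107%) were lower with β-SITO, and that of Gbp8 (0.311% against 0.817%) was higher. For these 9 members the groups did not overlap. The shares of Gbp11 did, at 1.57% ± 0.154 against 1.12% ± 0.602 (SD, n = 3 each). Exact two-sided permutation tests gave p = 0.1 for each of the 9 members (0.111 after Benjamini-Hochberg adjustment over the 10) and p = 0.4 for Gbp11, so no share could pass a threshold of 0.05 in a design of this size.

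**Figure D2:**
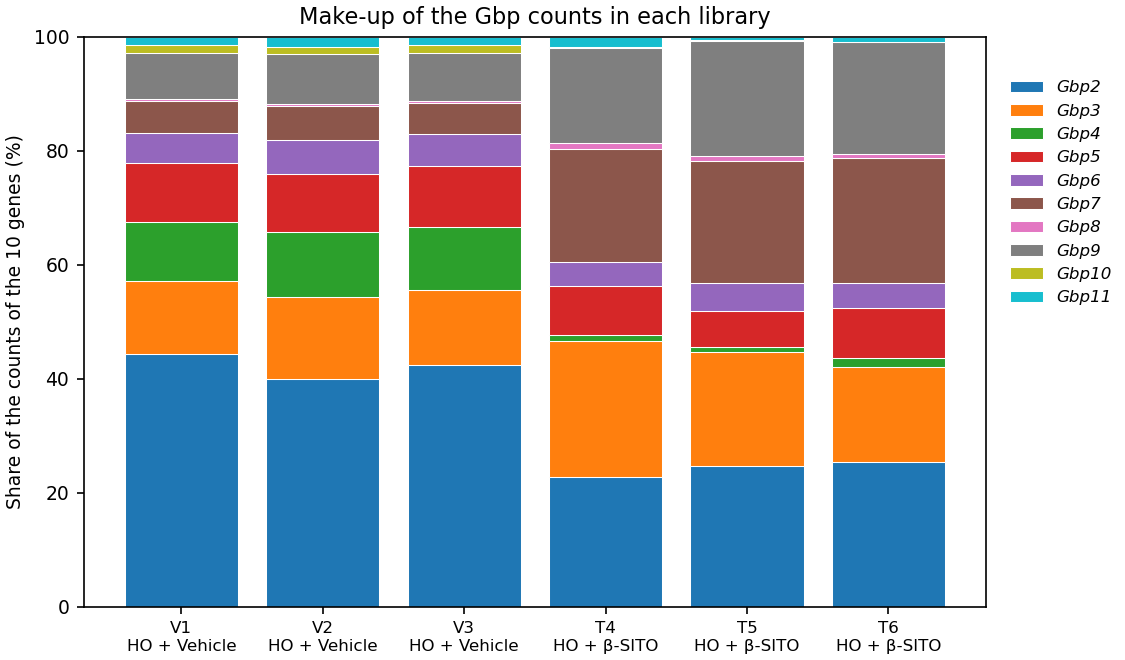
Share of the counts of the 10 GBP genes held by each gene (%), as stacked bars for each library that add up to 100%. Gbp2 takes 40.0% to 44.4% of each vehicle bar and 22.7% to 25.5% of each β-SITO bar, while the bands of Gbp7 and Gbp9 widen and that of Gbp4 narrows.

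The fall was then set beside the genes around the clusters, a window of 150 kb on each side that was chosen after values were seen. On chromosome 3 the 3 tested neighbours were Pdlim5, Kyat3 and Gtf2b, and 0 of 3 were called, with log2 fold changes of -0.12 ± 0.07, -0.35 ± 0.16 and -0.25 ± 0.10 (SE). On chromosome 5 Lrrc8b was not called, with a log2 fold change of -0.49 ± 0.09 SE. Abcg3, on the other side, rose from 12, 8 and 12 counts to 138, 100 and 101 counts, a log2 fold change of 3.15 ± 0.24 SE (adjusted p = 1.19e-08). Between the outermost members no other row had enough counts to be tested. Gbp2b, the gene between Gbp3 and Gbp2, had 0, 5 and 4 counts with vehicle and 0 in every β-SITO library, near the limit of 3 counts that a count of 0 allows, and the pseudogene Gbp2-ps was at 0 in all 6. Gbp2b held an ISRE core like its neighbours, and its counts were far below theirs with vehicle too.

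**Figure D3:**
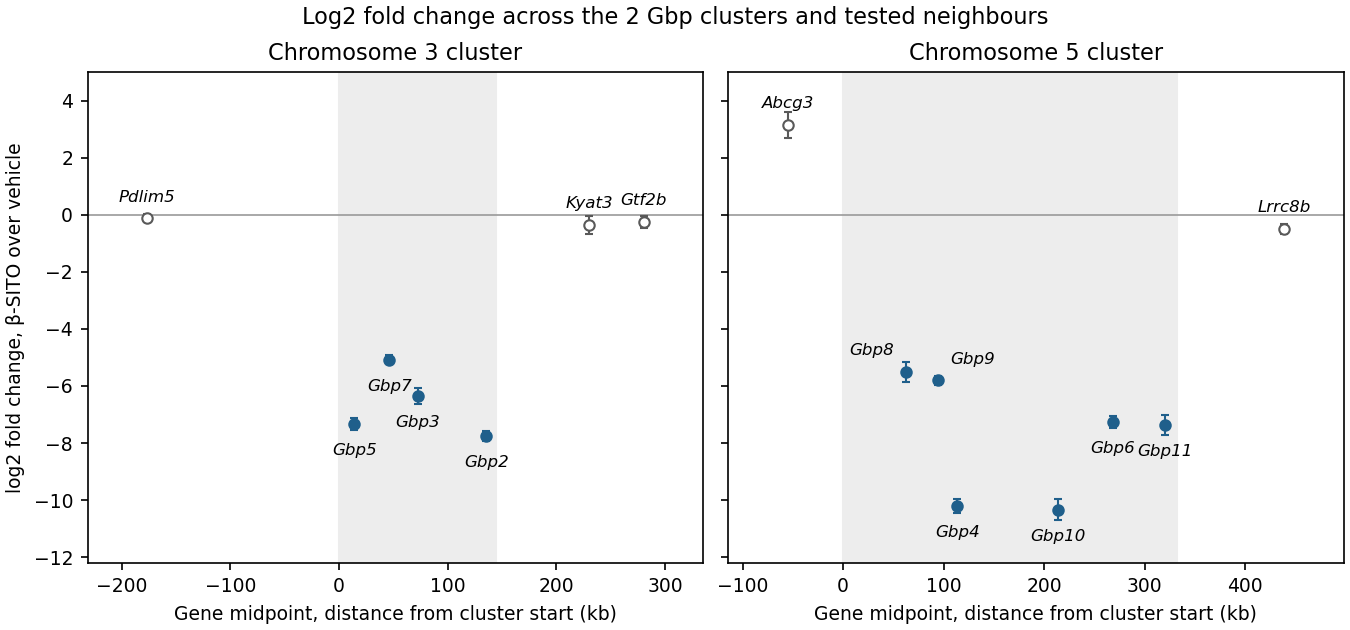
Log2 fold change (β-SITO over vehicle, with 95% intervals) of the tested genes on chromosomes 3 and 5 against the distance of the gene's midpoint from the start of the cluster in kb. Filled points in the grey clusters are the GBPs, between -5.08 and -10.33, and open points are the neighbours within 150 kb, between -0.49 and 3.15.

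Among the genes that signal to the GBPs, the listed ligand genes, Ifng and Ifnb1, were hardly seen. The list held no other interferon gene. Ifng, the gene of interferon-γ, had 0 counts in 6 of 6 libraries, and Ifnb1, that of interferon-β, had 1 count in V2 and 0 elsewhere. Of 25 listed ligands, receptors, kinases, factors and brakes of interferon signalling, 23 were tested, 13 were lower, 0 were higher and 10 were not called, with a median log2 fold change of -1.67. The receptor genes of interferon-γ were not called, at -0.48 ± 0.06 for Ifngr1 and -0.79 ± 0.06 for Ifngr2 on the log2 scale (SE). Their changes were under 2-fold, with adjusted p = 2.69e-06 and 6.65e-09. Of the receptor genes of type I interferon, Ifnar2 was lower (-1.69 ± 0.06) and Ifnar1 was not called (-0.79 ± 0.06). Among the kinases Jak1 was not called (-0.78 ± 0.06) and Jak2 fell, from 368, 406 and 415 CPM to 34.5, 37.8 and 35.3 CPM.

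The factors Stat2, Irf1 and Irf9, downstream of the interferon receptors, fell, with log2 fold changes nearer to 0 than that of any member. Stat2 changed by -3.43 ± 0.08 and Irf9 by -1.67 ± 0.07 on the log2 scale (SE), both parts of a complex that reads ISREs. Irf1, a factor on which GBP induction is known to rely, went from 301, 312 and 294 CPM to 28.0, 25.9 and 25.7 CPM (-3.51 ± 0.07 SE, adjusted p = 6.05e-16). The lowest fold changes in the list were those of Usp18, a brake on the type I receptor (-6.87 ± 0.13), and Irf7, which amplifies type I interferon (-6.85 ± 0.10). The highest were Irf3 (0.37 ± 0.07) and Pias1 (0.31 ± 0.07), neither of them called.

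The other interferon-induced GTPases fell with the GBPs. Immunity-related GTPases (IRGs) share the task of disrupting parasite vacuoles. Of 20 listed, 15 were in the table and tested, and 15 of 15 were lower, with a median log2 fold change of -6.31. They ranged from -9.15 ± 0.18 for Gm4841 and -8.94 ± 0.19 for Tgtp1 to -2.13 ± 0.09 for 9930111J21Rik2 (SE), and many are near copies of each other whose reads may be split. The antiviral Mx1 went from 149, 158 and 159 CPM to 0.359, 0.281 and 0.104 CPM (log2 fold change -9.25 ± 0.14 SE). Mx2 (-5.67 ± 0.16), Gvin2 (-3.98 ± 0.13) and Gvin1 (-3.66 ± 0.16) were lower as well, which made 4 of 4 tested.

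Large GTPases of the dynamin superfamily that are not known as interferon genes did not share a direction. Of 14 tested, 1 was lower, 3 were higher and 10 were not called, and the median log2 fold change was 0.05. Over all tested genes 10.1% were lower and 12.8% were higher. Atl1, an atlastin that fuses endoplasmic reticulum and is related to GBPs, rose from 2.97, 2.57 and 3.03 CPM to 11.4, 11.5 and 10.7 CPM (log2 fold change 1.97 ± 0.13 SE). Dnm1, the dynamin of synaptic vesicles, rose by 2.34 ± 0.10, while Ehd1, of endosome recycling, changed by -1.49 ± 0.06 on the log2 scale (SE). Dnm1l, which divides mitochondria, was not called at -0.36 ± 0.07.

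Genes that act with GBPs in cell-autonomous defence fell in part. Of 10 tested inflammasome and pyroptosis genes 9 were lower and 0 higher (median log2 fold change -1.95). Il1b, the cytokine that caspase-1 matures, went from 197, 221 and 213 CPM to 0.205, 0.0561 and 0.104 CPM, from 4, 1 and 2 counts (log2 fold change -10.65 ± 0.15 SE). Zbp1, a sensor of Z-form nucleic acids that starts necroptosis, changed by -6.52 ± 0.12. Casp4, the caspase that GBPs help to meet bacterial lipopolysaccharide, changed by -4.39 ± 0.12, and Gsdmd, the pore protein it cuts, by -2.57 ± 0.07. Aim2, the DNA sensor that GBPs feed by opening bacteria, was not called at -0.85 ± 0.10. Nlrp3 was called at -1.10 ± 0.15 (adjusted p = 9.84e-06), and that call was lost under 5 of the 15 other settings run for single genes, with values as near to 0 as -0.94.

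Most genes of the machinery that places GBPs on membranes were not called, as was true of all tested genes, of which 22.8% were called. Of 13 tested genes of ATG8 conjugation and ubiquitin, which guide GBPs to vacuoles, 1 was lower and 0 were higher (median log2 fold change -0.07). The lower one was Trim21, an antibody receptor with ubiquitin ligase activity (-3.14 ± 0.08 SE). Sqstm1, the ubiquitin adaptor p62, was not called at -0.73 ± 0.06, and neither were Gabarapl1 (0.48 ± 0.05) and Map1lc3a (0.38 ± 0.07). Some GBPs are anchored by a lipid on a C-terminal cysteine. Of 6 tested genes for that prenylation and its later steps 0 were lower and 0 higher, between Pggt1b at -0.53 ± 0.08, the enzyme subunit that adds the geranylgeranyl group, and Fnta at 0.49 ± 0.07 (SE).

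**Figure D4:**
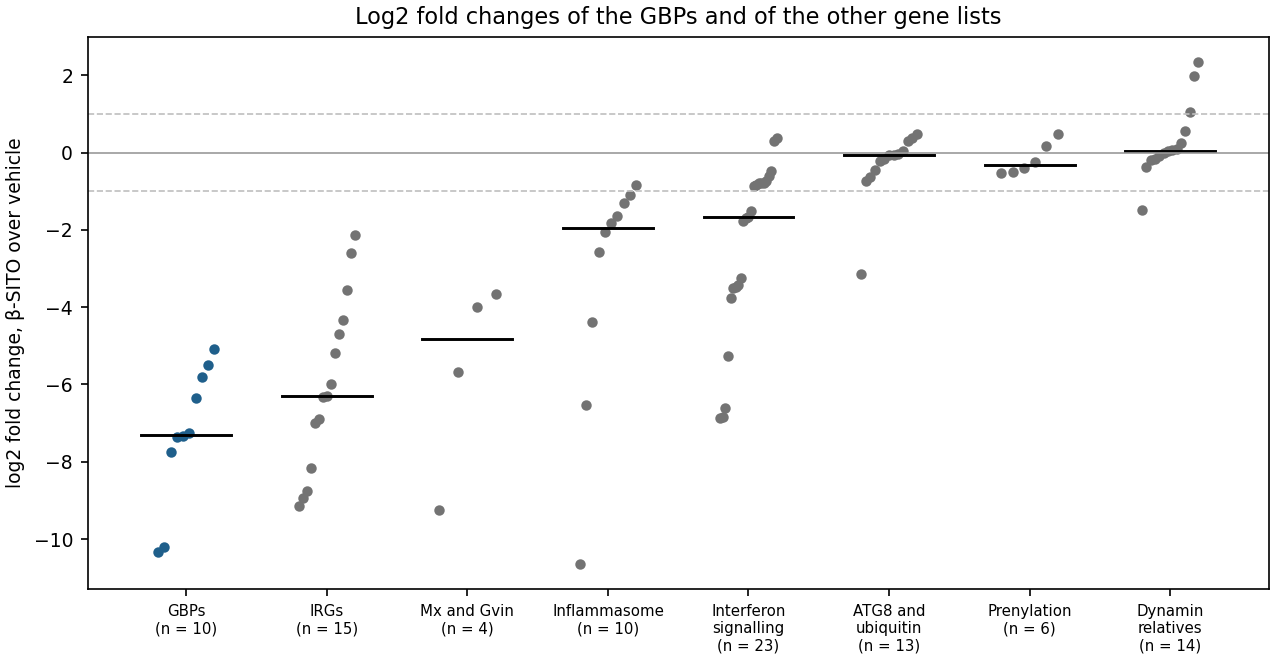
Log2 fold change (β-SITO over vehicle) of each tested gene, by list, with black lines for medians and dashed lines at 2-fold. The GBPs (median -7.29) and IRGs (median -6.31) lie wholly below -2, while the prenylation genes stay within the dashed lines.

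The non-members most like the summed GBPs were sought by the root mean square distance between log2 CPM profiles, each centred over the 6 libraries. The nearest were Ptx3 (distance 0.105, log2 scale), Irf7 (0.118), Isg15 (0.118), Phf11b (0.130) and Pax5 (0.132). Ptx3, a secreted pattern receptor, went from 1881, 1925 and 2017 CPM to 14.9, 13.0 and 14.1 CPM. Isg15, a ubiquitin-like modifier, went from 938, 1120 and 967 CPM to 9.55, 8.25 and 6.50 CPM. The log2 fold changes of the first 4 lay between -6.85 and -7.11. Pax5, a B cell factor, had 198, 203 and 195 counts with vehicle and 0 in every β-SITO library, which is at least 77.9-fold lower when set against 3 counts per library. The order rests on the difference between the groups, since 6 libraries in 2 tight groups hold little other pattern, and on the prior count of 2 for genes near 0.

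Within the β-SITO group T4 had the highest CPM for 7 of the 10 members. T4 also had the lowest summed cardiomyocyte markers of all 6 libraries and the highest summed macrophage markers. The part of this in the members' levels was not tested, and without T4 all 10 members were still called lower.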

How the data were processed

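Reads of 6 libraries were aligned and counted by the authors. The submitters' processing notes name FastQC, HISAT2 and featureCounts and the build GRCm39, and versions, strand setting and treatment of shared reads are not given in the sources used here. For the library kit, the paper's methods name ABclonal and the labels Illumina. The authors deposited raw counts per gene without normalization, with 16694734 to 18460522 per library. From them CPM and tests were computed with R 4.3.3 and edgeR 4.0.16 (filterByExpr, TMM, quasi-likelihood test, Benjamini-Hochberg adjustment over 14799 genes), with group as the only term. The standard error of a log2 fold change is its size divided by the square root of F. The biological coefficient of variation was 6.52%. The scripts were tested on simulated counts.

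The members and gene lists were chosen with earlier results of these data known. Named genes were the members, other rows at the loci, interferon signalling genes set by name, the 2 lowest and 2 highest of each list, and the 5 most alike. Casp4, Gsdmd, Ifnar1, Ifnar2, Abcg3 and the other neighbours were named after their values were seen. Some genes chosen by this rule are left out of the text. Of the cell type markers, those at 0 and the few that fell were named.

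Alternatives were DESeq2 1.42.0, limma-voom (limma 3.58.1), glmTreat, no fold-change cutoff, other normalizations, filters and thinning, and leaving out each library. Permutation tests used scipy 1.17.1. Promoter windows were those of RefSeq on GRCm38.p6, and no coordinates were converted between builds.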

Additional observations from a re-analysis of the deposited data

How the results depend on the processing

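All 10 members were called lower under each of the 16 alternatives, and their log2 fold changes lay between -4.93 (Gbp7, library size only) and -11.14 (Gbp10, without T4). The log2 ratio of the summed members lay between -7.02 and -6.80. Without a fold-change cutoff 9892 genes passed in place of 3380, and the lower genes became 21 for interferon signalling, 3 for dynamin relatives, 6 for ATG8 and ubiquitin, 4 for prenylation and 10 for inflammasome genes. Over all alternatives the lower inflammasome genes numbered 7 (glmTreat) to 10, against 9. Leaving out 1 library gave 3467 to 3610 genes, 8 to 9 lower inflammasome genes, and a change in the Gbp11 share of -0.78 to -0.19 percentage points. For single genes 5 results, all of Nlrp3, dropped under 2-fold or lost the call and 0 reversed. Scaling by library size only or by the upper quartile moved the median of all genes to 0.14 (log2), far less than any member moved. No paired analysis was run, because the labels number the replicates 1 to 3 and 4 to 6 and do not say whether libraries were paired. Depth limits Gbp10, Gbp8, Gbp4 and Gbp11, which had at most 18 counts in a β-SITO library.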
